A study of Mus musculus with 63 samples.

Results

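The transcripts described here are 9 mouse mRNAs: Camk2a, Camk2b, Camk2d and Camk2g, which encode the alpha, beta, delta and gamma subunits of calcium/calmodulin-dependent protein kinase II (CaMKII), Camk2n1 and Camk2n2, which encode inhibitor proteins of the kinase, Nrgn (neurogranin), Ddn (dendrin) and Map2 (microtubule-associated protein 2). They were taken by symbol from the count tables and make up 9 of 55291 gene symbols. The values that follow are their levels in all groups of the series, above all in the synaptopodin co-immunoprecipitation (Synpo-coIP) against its input.

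Entorhino-hippocampal tissue cultures from C57BL/6J mice (wildtype, Synpo+/+) and B6.129-Synpotm1Mndl/Dllr mice (Synpo-/-) were made at postnatal day 3 to 5 and kept for at least 18 days in vitro. In the Synpo-coIP experiment, an antibody against synaptopodin on protein A beads pulled RNA out of a lysate of 6 pooled cultures, and a part of the precleared lysate was sequenced as input. In the regional experiment, the dentate gyrus (DG) or the CA3 area was cut out of 1 culture per library. Lesioned cultures had their entorhinal cortex cut off (entorhinal cortex lesion, ECL), which removes the perforant path, and control cultures did not. The coIP experiment held 5 wildtype control, 5 wildtype lesioned and 2 Synpo-/- lysates, each as coIP and input, and the labels give no lesion state for the Synpo-/- lysates. The regional experiment held 4 wildtype control, 7 wildtype lesioned, 7 Synpo-/- control and 4 Synpo-/- lesioned DG libraries, and 2 wildtype control, 3 wildtype lesioned, 6 Synpo-/- control and 6 Synpo-/- lesioned CA3 libraries. The Synpo-/- allele is constitutive and not limited to a cell type, and the study used coIP from these lysates as its measure of unspecific pull-down by antibody and beads.

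CaMKII is a kinase of many subunits that calcium-bound calmodulin switches on at excitatory synapses, and its activation is part of long-term potentiation. Camk2a mRNA is a textbook case of an mRNA carried into dendrites, where it can be translated near synapses, and mRNAs of Map2, Ddn and Nrgn are also known from dendrites. Synaptopodin is an actin-associated protein of the spine apparatus, a stack of smooth endoplasmic reticulum that some dendritic spines hold.

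In GRCm38 coordinates, the genes lie on 9 different chromosomes, with Camk2b at chr11:5969644-6066362, Camk2d at chr3:126596302-126846326, Camk2g at chr14:20734875-20794088, Camk2n1 at chr4:138454314-138460123, Camk2n2 at chr16:20619215-20621287, Nrgn at chr9:37544492-37552904, Ddn at chr15:98803777-98809490 and Map2 at chr1:66175273-66442583. All 9 are protein coding. Counts were summed over all exons, coding and untranslated, and the exonic length ran from 1291 bases in Camk2n2 and 1453 in Nrgn to 16456 in Map2 and 22493 in Camk2d. This length joins the exons of all annotated transcripts of a gene, so it can exceed the length of any single transcript. Of the exonic bases, 4.68% of Ddn overlap another gene (B130046B21Rik) and 0.75% of Map2 overlap Gm10558. Counts took no account of strand, so reads from these stretches could not be told apart.

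Since the kinase subunits and the inhibitors are paralogs, their exons were compared base by base to see whether reads could be placed on one member. Over the 36 pairs of members, the longest identical stretch was 34 bases, between untranslated exon parts and shorter than the read lengths stated in the methods of the study. The longest coding stretch counted 29 bases and was found in 2 pairs, Camk2b with Camk2g, at chr11:5997883-5997911 and chr14:20770064-20770092, and Camk2a with Camk2g, across an exon junction. The first of these is shown. The coding sequences of the inhibitor genes are short enough to show whole. Both span 2 exons, that of Camk2n1 with 237 bases between chr4:138455186-138456788 on the plus strand and that of Camk2n2 with 240 bases between chr16:20620173-20621194 on the minus strand. Capitals mark identical stretches of 12 or more bases, 44 bases or 18.6% of Camk2n1 and 18.3% of Camk2n2, and lower case letters lie outside them. Reads over the untranslated exon parts, which are not shown, were counted too.
Camk2b and Camk2g shared stretch: agagagtactacagtgaagctgatgccag
Camk2n1 coding sequence: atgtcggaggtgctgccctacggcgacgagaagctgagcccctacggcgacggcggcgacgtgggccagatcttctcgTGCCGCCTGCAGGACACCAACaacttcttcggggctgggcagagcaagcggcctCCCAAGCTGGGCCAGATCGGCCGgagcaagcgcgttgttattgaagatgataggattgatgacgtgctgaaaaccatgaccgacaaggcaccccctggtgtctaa
Camk2n2 coding sequence: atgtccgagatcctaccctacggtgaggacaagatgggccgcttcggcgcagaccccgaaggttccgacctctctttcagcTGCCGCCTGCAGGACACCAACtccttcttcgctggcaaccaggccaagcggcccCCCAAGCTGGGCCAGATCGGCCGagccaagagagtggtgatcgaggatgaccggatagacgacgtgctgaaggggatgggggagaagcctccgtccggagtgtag

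Total counts per library ranged from 11601154 to 29014397 in wildtype libraries of the coIP experiment, from 42886994 to 53682143 in the libraries labelled Synpo-/- there, and from 14055930 to 46043990 in the regional libraries. Levels are given as CPM, the usual share of the library total, here on TMM-scaled totals and separately for each experiment. Fold changes were scaled within the groups compared, so a ratio of mean levels can differ from the fold change. Libraries labelled Synpo-/- did not have less Synpo than wildtype: it measured 29.9 and 26.4 CPM in their inputs against 20.3 to 32.2 CPM in the 5 wildtype control inputs, and in control DG 41.0 to 69.3 CPM against 19.1 to 24.5 CPM. Gene counts do not show whether those reads came from an intact transcript, and the genotype is therefore given as the labels have it. One of the 7 wildtype lesioned DG libraries, replicate 5, did not carry the DG marker Prox1 at the level of the others, with 15.5 CPM against 120.1 to 217 CPM in the other 21 DG libraries and 12.7 to 44.0 CPM in the 17 CA3 libraries. The lesion values of wildtype DG and their difference from Synpo-/- are given with and without it. Neuronal markers were present in every library, and their summed level (8 genes) was 7458 to 9072 CPM in wildtype control inputs and 4109 to 5433 CPM in the coIPs. Of these 8 genes 1 was higher and 2 were lower in the coIP, and their part in the results below was not tested.

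The first comparison asked which of the 9 transcripts were more abundant in the Synpo-coIP than in the input of non-lesioned wildtype cultures. Camk2a, Camk2b, Camk2g, Ddn and Map2 were higher in the coIP, Nrgn was lower, and Camk2d, Camk2n1 and Camk2n2 did not pass the test. Thus 5 of 9 members were called higher, against 29.6% of the 18222 genes tested, and 1 of 9 was called lower, against 25.5%. The median log2 fold change was 0.35 over the members and 0.04 over all genes tested. All 9 members passed the filter on low counts in this and every other comparison. In either direction, 55% of all genes tested were called, so that a call by itself sets no member apart from the rest of the transcriptome.

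**Figure D1:**
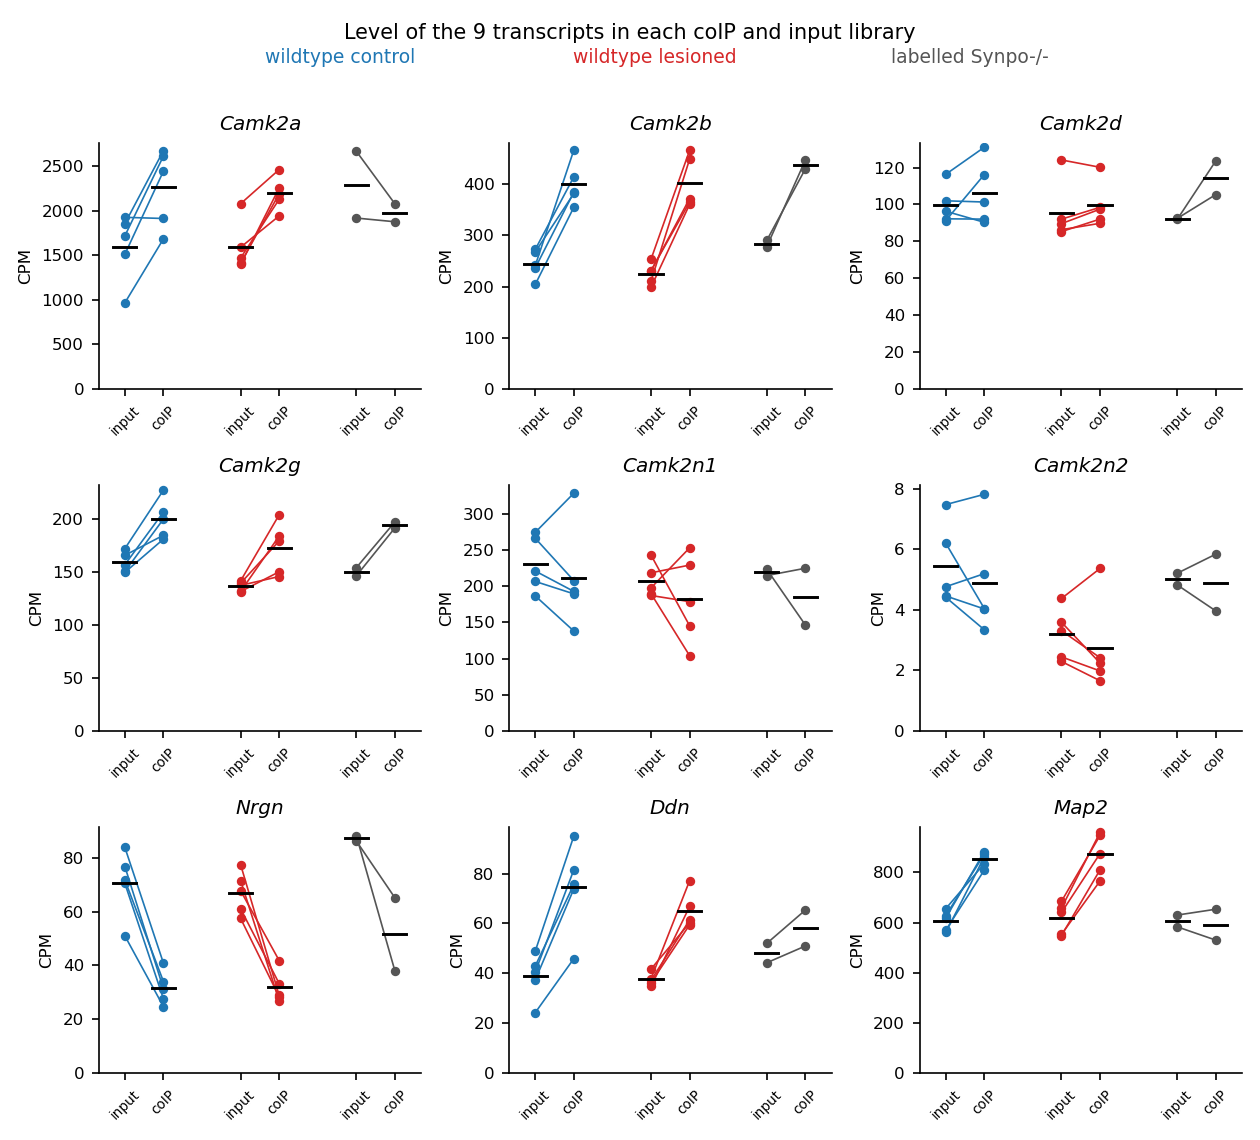
Level (CPM) of each transcript in every library of the Synpo-coIP experiment, with lines joining coIP and input of the same replicate number (for Synpo-/-, the preparation number), black bars for group means and colours for wildtype control, wildtype lesioned and Synpo-/- lysates. In each colour, coIP points lie above all input points for Camk2b and below them for Nrgn, and Map2 coIP points lie above the inputs in the wildtype colours.

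Camk2a (chr18:60925618-60988152), the most abundant of the kinase subunits, measured 967, 1925, 1511, 1855 and 1718 CPM in the inputs of wildtype control replicates 1 to 5 and 1684, 1912, 2444, 2674 and 2614 CPM in the coIPs. The coIP was higher in 4 of 5 lysates, level in replicate 2, and the groups overlapped. The log2 fold change was 0.52 (SE 0.173, 95% confidence interval 0.16 to 0.89, adjusted p = 0.0181). This and every adjusted p below come from the quasi-likelihood test of edgeR with Benjamini-Hochberg adjustment across the whole table of genes tested, unless DESeq2 is named. Without coIP replicate 4 the call was lost, with a log2 fold change of 0.46 and an adjusted p of 0.0514. Camk2b, whose product ties the holoenzyme to actin filaments, measured 204, 268, 241, 237 and 273 CPM in the inputs and 355, 382, 467, 385 and 414 CPM in the coIPs. All 5 coIPs lay above all 5 inputs. The log2 fold change of Camk2b was 0.73 (SE 0.0993, 95% confidence interval 0.52 to 0.94, adjusted p = 2.45e-05), or 1.66-fold.

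Camk2g, a subunit found in many tissues besides brain, measured 149, 172, 166, 157 and 150 CPM in the inputs and 181, 227, 184, 206 and 200 CPM in the coIPs. The groups did not overlap, but the step was small, with a log2 fold change of 0.35 (SE 0.0843, adjusted p = 0.00275). Camk2d, likewise widely expressed, measured 91.2 to 116 CPM in the inputs and 90.3 to 131 CPM in the coIPs. Its groups overlapped over almost their whole range, 2 of 5 lysates were higher in the coIP, and the log2 fold change was 0.11 (95% confidence interval -0.13 to 0.35, adjusted p = 0.423). The kinase subunits were thus unequal in the coIP, and on the per-length scale (CPM per kilobase of exon) Camk2a made up 78.6% ± 4.07 (SD, n = 5) of the summed subunit level in the inputs and 78.8% ± 3.05 in the coIPs. Camk2b went from 10.2% ± 1.47 to 11.6% ± 1.44 on that scale, Camk2g from 9.52% ± 2.07 to 8.31% ± 1.56 and Camk2d from 1.74% ± 0.646 to 1.29% ± 0.440. These shares differed by less than or about the spread between replicates. The length joins the exons of all annotated transcripts, so shares of different subunits depend on the annotation.

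The inhibitor transcripts showed no call. Camk2n1 measured 187 to 275 CPM in the inputs and 138 to 329 CPM in the coIPs, with the coIP higher in 1 of 5 lysates and a log2 fold change of -0.11 (95% confidence interval -0.50 to 0.28, adjusted p = 0.63). Camk2n2 was the scarcest member, with 4.41 to 7.47 CPM in the inputs and 3.34 to 7.81 CPM in the coIPs. Its log2 fold change was -0.14 (95% confidence interval -0.63 to 0.36, adjusted p = 0.643).

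Nrgn, which encodes a small postsynaptic protein that binds calmodulin when calcium is low, went the other way. It measured 50.9, 83.8, 70.4, 76.7 and 71.7 CPM in the inputs and 24.6, 40.8, 27.5, 31.3 and 34.0 CPM in the coIPs. Every coIP lay below every input, and the coIP to input ratio was between 0.390 and 0.487 in all 5 lysates. The log2 fold change of Nrgn was -1.14 (SE 0.147, 95% confidence interval -1.45 to -0.83, adjusted p = 1.49e-05).

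Ddn, which encodes a protein of dendrites and postsynaptic sites, measured 24.2, 43.0, 37.4, 40.6 and 49.0 CPM in the inputs and 45.9, 75.7, 73.9, 81.6 and 95.1 CPM in the coIPs. Replicate 1 was the lowest library in both fractions, so the groups overlapped although the ratio was close to the same in all 5 lysates, between 1.76 and 2.01. The log2 fold change of Ddn was 0.96 (SE 0.189, adjusted p = 0.00061). Map2, which encodes a microtubule-binding protein of dendrites and cell bodies, measured 560, 618, 570, 655 and 628 CPM in the inputs and 862, 883, 810, 836 and 873 CPM in the coIPs. The groups were far apart relative to their spread, with a log2 fold change of 0.51 (SE 0.0745, adjusted p = 4.65e-05).

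The same comparison in wildtype cultures with a lesioned entorhinal cortex used other lysates, and its calls fell on the same side for each member. There, 5 of 9 members were called higher, against 30.5% of 18229 genes, and 1 of 9 lower, against 27.8%. Camk2a measured 1589, 1396, 2078, 1410 and 1469 CPM in the inputs and 1942, 2255, 2461, 2190 and 2128 CPM in the coIPs, with a log2 fold change of 0.49 (SE 0.124, adjusted p = 0.00385), and the coIP was higher in 5 of 5 lysates. Camk2b had a log2 fold change of 0.86 (SE 0.111, adjusted p = 2.17e-05), Camk2g of 0.36 (SE 0.0988, adjusted p = 0.00675), Ddn of 0.81 (SE 0.0979, adjusted p = 1.36e-05) and Map2 of 0.52 (SE 0.101, adjusted p = 0.000591). Nrgn fell by 1.06 on the log2 scale (SE 0.129, adjusted p = 1.45e-05), from 57.5 to 77.4 CPM in the inputs to 26.8 to 41.8 CPM in the coIPs. For Camk2b, Camk2g, Nrgn, Ddn and Map2 the 5 coIPs and the 5 inputs did not overlap.

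**Figure D2:**
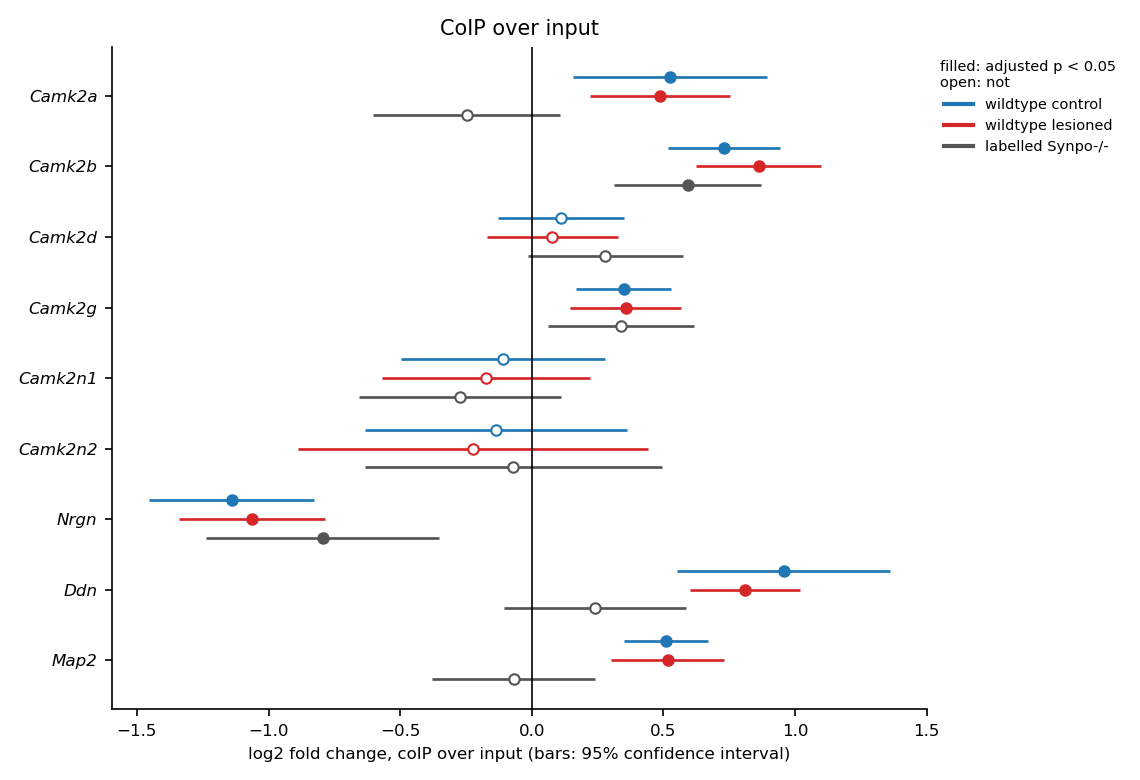
Log2 fold change of coIP over input for each transcript, with 95% confidence intervals, in wildtype control (n = 5 per fraction), wildtype lesioned (n = 5) and Synpo-/- lysates (n = 2), filled where the adjusted p passed 0.05. Camk2b and Nrgn are filled in all 3 comparisons, and Camk2a, Camk2g, Ddn and Map2 in the wildtype comparisons only.

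Camk2d, Camk2n1 and Camk2n2 again missed the threshold, with log2 fold changes of 0.08 (adjusted p = 0.587), -0.17 (adjusted p = 0.433) and -0.22 (adjusted p = 0.555). Without lesioned coIP replicate 5, Camk2n2 was called lower, at -0.62 (adjusted p = 0.0462). In a direct test of whether the lesion changed the coIP over input difference, 0 of 9 members were called by edgeR, 0 had an unadjusted p under 0.05 and 0 were called by DESeq2, against 0% of 19581 genes (434 of them with an unadjusted p under 0.05). The differences between the log2 fold changes ran from -0.11 in Ddn to 0.17 in Camk2b, and the 95% confidence interval for Camk2a was -0.46 to 0.47.

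The lysates labelled Synpo-/- asked which of these differences were also there in the study's control for unspecific pull-down, with 2 lysates only. Camk2b was higher and Nrgn was lower there as well, and no other member passed the test, so that 1 of 9 was called higher, against 15% of 20892 genes, and 1 of 9 lower, against 16.4%. Camk2b measured 290 and 278 CPM in the inputs and 430 and 447 CPM in the coIPs, a log2 fold change of 0.59 (SE 0.129, adjusted p = 0.00475). Nrgn measured 86.2 and 88.2 CPM in the inputs and 65.1 and 38.0 CPM in the coIPs, a log2 fold change of -0.79 (SE 0.204, adjusted p = 0.0115). Both Nrgn coIPs lay below both inputs, but far apart from each other.

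Camk2a, by contrast, measured 2667 and 1917 CPM in these inputs and 2077 and 1876 CPM in the coIPs. By the preparation number neither lysate had more Camk2a in the coIP, and by the other number in the labels 1 of 2 had. The log2 fold change, which does not use the pairing, was -0.25 (95% confidence interval -0.60 to 0.11, adjusted p = 0.27). Map2 measured 630 and 583 CPM in the inputs and 653 and 530 CPM in the coIPs, with a log2 fold change of -0.07 (95% confidence interval -0.38 to 0.24, adjusted p = 0.745). Ddn measured 52.0 and 44.2 CPM in the inputs and 65.3 and 50.9 CPM in the coIPs, with a log2 fold change of 0.24 (95% confidence interval -0.11 to 0.58, adjusted p = 0.273). Camk2g had a value close to that in wildtype, 0.34, without a call (adjusted p = 0.0614), and Camk2d had 0.28 (adjusted p = 0.137). Camk2n1 and Camk2n2 had -0.27 (adjusted p = 0.264) and -0.07 (adjusted p = 0.862). Without coIP replicate 1, Camk2n1 was called lower, at -0.62 (adjusted p = 0.00258), on the single coIP library left.

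Whether coIP over input differed between wildtype control and Synpo-/- lysates was tested in one fit of both. Every Synpo-/- library here had a higher total count than any wildtype library of the coIP experiment, and its label is worded otherwise. An effect of genotype and another difference between these sets of libraries therefore cannot be told apart. No member was called by edgeR (0 of 9, against 0% of 20621 genes), while 2 members had an unadjusted p under 0.05 and DESeq2 called 1. Over all genes, 1511 had an unadjusted p under 0.05 and DESeq2 called 51. The largest differences were in Camk2a, with a log2 fold change 0.72 higher in wildtype (95% confidence interval 0.07 to 1.38, adjusted p = 0.64), Ddn, 0.67 higher (-0.03 to 1.37, adjusted p = 0.713), and Map2, 0.53 higher (0.22 to 0.84, adjusted p = 0.505). Camk2b differed by 0.09 (-0.28 to 0.45, adjusted p = 0.954) and Nrgn by -0.40 (-1.01 to 0.22, adjusted p = 0.83). A p above the threshold does not show that the genotypes were alike, and the intervals of Camk2a and Map2 lay above 0. With the lysate as a block, the difference in Ddn was 0.67 with an adjusted p of 0.0458, that in Map2 had an adjusted p of 0.0591 and that in Camk2a one of 0.074. This block pairs the Synpo-/- libraries by preparation number, and their deviations hardly correlated (r 0.0456). With the other number no member was called, and the adjusted p was 0.0794 for Ddn, 0.0967 for Map2 and 0.1 for Camk2a.

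Genes of greater exonic length tended to be higher in the coIP. In wildtype control lysates the median log2 fold change was -0.34 over the shortest genes, with at most 2259 exonic bases, where Camk2n2 and Nrgn belong. It was 0.36 over the longest, with at least 6238 bases, where the 4 kinase subunits and Map2 belong. In the Synpo-/- lysates the medians of the shortest and longest genes, with limits of 1946 and 5857 bases, were -0.17 and 0.22. The comparison was therefore also made after removal of the trend with exonic length from each library. In wildtype control lysates Ddn then had a log2 fold change of 1.06 (adjusted p = 0.000227), Camk2b of 0.42 (adjusted p = 0.00118) and Nrgn of -0.55 (adjusted p = 0.00371), all still called. Map2 was at -0.04 (adjusted p = 0.682), Camk2a at 0.30 (adjusted p = 0.148) and Camk2g at 0.19 (adjusted p = 0.077), none of them called. With the lysate as a block in the same fit, Camk2a at 0.31 (adjusted p = 0.00477) and Camk2g at 0.19 (adjusted p = 0.0233) were called. Camk2d, the longest member when the exons of all annotated transcripts are joined, turned lower in the coIP, at -0.56 (adjusted p = 0.00178). With the trends of length and GC content both removed, Camk2b was at 0.20 (adjusted p = 0.0277), Ddn at 0.57 (adjusted p = 0.00383) and Nrgn at -0.97 (adjusted p = 1.47e-05), and Camk2d at -0.38 (adjusted p = 0.00699). Removal of the length trend moved the median of all genes from 0.04 to 0.10. In wildtype lesioned lysates, removal of the length trend likewise left Ddn, Camk2b and Nrgn called and ended the calls of Camk2a, at 0.27 (adjusted p = 0.0577), Camk2g, at 0.23 (adjusted p = 0.0723), and Map2, at -0.07 (adjusted p = 0.621). With the block as well, Camk2a at 0.28 (adjusted p = 0.0149) and Camk2g at 0.22 (adjusted p = 0.0471) were called there. In the lysates labelled Synpo-/-, removal of the length trend left Camk2b called, at 0.39 (adjusted p = 0.0364), ended the call of Nrgn, at -0.44 (adjusted p = 0.0825), and put Map2 lower, at -0.45 (adjusted p = 0.0354). With both trends removed Camk2b was no longer called there, at 0.29 (adjusted p = 0.0894). With the block by preparation number and no length trend, Camk2a was called lower in these lysates, at -0.37 (adjusted p = 0.0351), and with the GC trend removed too it was again at -0.37 (adjusted p = 0.0294).

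**Figure D3:**
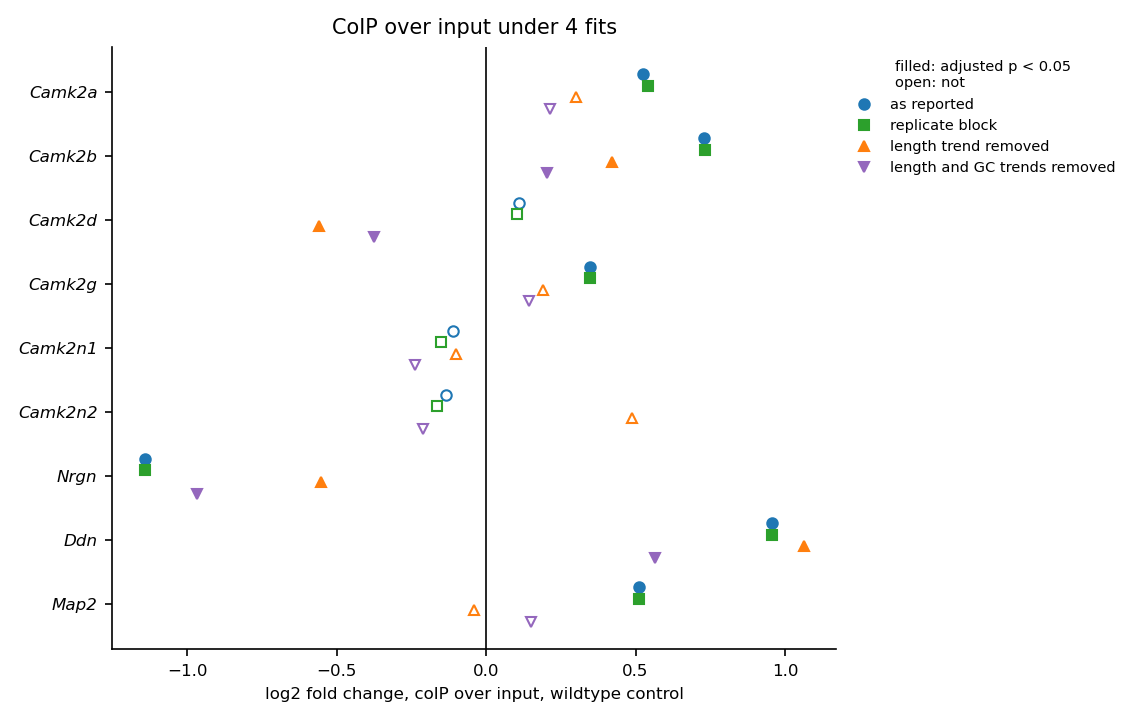
Log2 fold change of coIP over input in wildtype control lysates (5 per fraction) under 4 fits, filled where the adjusted p passed 0.05. Ddn, Camk2b and Nrgn stay filled in each fit, Map2 moves from 0.51 to -0.04 and Camk2d from 0.11 to -0.56 once the length trend is removed.

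Other genes of calmodulin and CaMK signalling, from a list of 26, divided in both directions in wildtype control lysates, with 6 higher, 11 lower and 9 without a call, and a median log2 fold change of -0.17, where 29.6% of all genes were higher, 25.5% lower and the median was 0.04. The 4 with the smallest p were all lower: Gap43 (a calmodulin-binding protein of growth cones) by a log2 fold change of -1.35 (adjusted p = 3.96e-07), Calm2 (calmodulin) by -1.54 (adjusted p = 4.51e-07), Ppp1ca (a catalytic subunit of protein phosphatase 1) by -0.98 (adjusted p = 4.97e-07) and Pcp4 (a calmodulin-binding peptide) by -1.43 (adjusted p = 1.74e-06). Of 20 other mRNAs known from dendrites, 14 were higher and 2 lower, with a median of 0.75. After removal of the length trend, 5 signalling genes were higher and 12 lower, with a median of -0.13, and 12 dendritic mRNAs were higher and 4 lower, with a median of 0.46, beside 29% and 20.4% of all genes and a median of 0.10. With the GC trend removed too, 8 dendritic mRNAs were higher and 4 lower, with a median of 0.28. Of all genes, 28% were then higher and 19.4% lower, with a median of 0.10. Before removal of any trend, the 4 dendritic mRNAs with the smallest p in wildtype control lysates were all higher. Kif5c (a kinesin heavy chain) had 0.88 (adjusted p = 6.79e-07), Itpr1 (a calcium release channel of the endoplasmic reticulum) 0.84 (adjusted p = 1.68e-06), Grin1 (the obligatory NMDA receptor subunit) 1.20 (adjusted p = 5.84e-06) and Eef2 (an elongation factor) 0.65 (adjusted p = 9.74e-06). In wildtype lesioned lysates the counts were 9 higher and 12 lower for signalling and 15 higher and 3 lower for dendritic mRNAs, beside 30.5% and 27.8% of all genes. Without the length trend the dendritic mRNAs there had 10 higher and 4 lower, beside 30.5% and 21.1% of all genes. Without the GC trend too the counts were 6 and 4 of 20, near the 29.2% and 19.9% of all genes. In the Synpo-/- lysates the counts were 4 higher and 8 lower for signalling, with a median of -0.12. For dendritic mRNAs they were 10 higher and 1 lower, with a median of 0.44, beside 15% and 16.4% of all genes. Without the length trend the dendritic mRNAs there had 5 higher and 1 lower, beside 14.5% and 13.6% of all genes. Without the GC trend too the counts were 4 and 3 of 20, beside 13.8% and 13.9%. All 8 genes named here were called there too, Grin1 with 1.12 (adjusted p = 0.000494) and Calm2 with -0.94 (adjusted p = 0.00073). Ppp1r9b is in both lists.

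By likeness to Camk2a over the 20 wildtype libraries of the coIP experiment (Spearman correlation of log2 CPM, 9617 genes with a mean of at least 10 CPM), the leading genes were Nsmf (rho 0.934), Caln1 (0.928), Dag1 (0.917), Adgrl1 (0.913) and Arhgap21 (0.908). Among the members, Ddn (0.842), Camk2b (0.812) and Map2 (0.719) ranked 117, 299 and 1066, and Camk2g (0.606) ranked 2048. Camk2d was at -0.083, Camk2n1 at -0.456 and Nrgn at -0.562. The 20 libraries come from 10 lysates and share the split into coIP and input, which both sides of each correlation follow.

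The lesion was then compared with control within each fraction of the coIP experiment. In the input, 0 of 9 members were called by edgeR, against 5.61% of 17951 genes, with 2 at an unadjusted p under 0.05 and 2 called by DESeq2. These were Camk2n2, with 4.41 to 7.47 CPM in control and 2.29 to 4.37 CPM in lesioned inputs (log2 fold change -0.77, 95% confidence interval -1.24 to -0.31, adjusted p = 0.0506), and Camk2g, with 149 to 172 and 131 to 141 CPM (-0.23, 95% confidence interval -0.37 to -0.09, adjusted p = 0.0614). Neither pair of groups overlapped, and both values lay just outside the threshold. Camk2a differed by -0.02 (95% confidence interval -0.36 to 0.33, adjusted p = 0.97). In the coIP, 0 of 9 were called by edgeR, against 0.314% of 18449 genes, with 1 at an unadjusted p under 0.05 and 0 by DESeq2. Camk2n2 had the largest difference there, -0.84 (95% confidence interval -1.52 to -0.16, adjusted p = 0.308), and without lesioned coIP replicate 5 it was -1.22 (adjusted p = 0.0463).

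In the regional experiment, DG and CA3 libraries of control cultures were compared first. In bulk tissue, fewer cells of a type and less RNA per cell cannot be told apart. Wildtype DG had more Camk2d and Camk2g and less Camk2a and Nrgn than CA3, so that 2 of 9 members were called higher, against 2.63% of 25656 genes, and 2 of 9 lower, against 2.75%. Camk2d measured 164, 92.0, 110 and 110 CPM in DG and 46.6 and 54.1 CPM in CA3, a log2 fold change of 1.25 (SE 0.203, adjusted p = 0.00186). Camk2a measured 304, 341, 375 and 467 CPM in DG and 603 and 545 CPM in CA3 (-0.61, SE 0.166, adjusted p = 0.0467). Neither of these pairs of groups overlapped. The same held for Camk2g and Nrgn and for Camk2b, Camk2n1 and Map2, which were not called. Camk2g was 0.68 higher (SE 0.157, adjusted p = 0.0206) and Nrgn was lower, at -0.73 (SE 0.188, adjusted p = 0.0372). With 2 CA3 libraries the calls of Camk2a, Camk2g and Nrgn each failed when some single libraries were left out, with an adjusted p of 0.226 for Camk2a, 0.162 for Camk2g and 0.312 for Nrgn without CA3 replicate 1, while Camk2d kept its call.

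Cultures labelled Synpo-/- offered larger groups of 7 DG and 6 CA3 control libraries, and the same 4 members were called there on the same sides. Here 3 of 9 members were higher in DG, against 13.1% of 21408 genes, and 3 of 9 lower, against 12.5%. Camk2a ran from 285 through a median of 424 to 783 CPM in DG and from 915 through 1133 to 1286 CPM in CA3, a log2 fold change of -1.04 (SE 0.164, adjusted p = 9.62e-05). Camk2d ran from 99.1 through 106 to 115 CPM in DG and from 59.1 through 72.1 to 92.2 CPM in CA3 (0.63, SE 0.0903, adjusted p = 3.24e-05). The DG and CA3 libraries did not overlap for either gene. Camk2g was 0.66 higher in DG (SE 0.0706, adjusted p = 9.56e-07), Camk2n1 0.40 higher (SE 0.08, adjusted p = 0.000863), Camk2b lower at -0.49 (SE 0.106, adjusted p = 0.00178) and Nrgn lower at -0.75 (SE 0.119, adjusted p = 0.000103). Map2 was near level between the regions in both genotypes, with -0.09 (95% confidence interval -0.37 to 0.19) and 0.02 (-0.14 to 0.18). The summed neuronal markers were lower in DG, with 3202 to 4130 CPM against 6218 to 6789 CPM in wildtype CA3, and 3254 to 5136 CPM against 7062 to 8867 CPM in the Synpo-/- cultures, and their part in these differences was not tested.

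**Figure D4:**
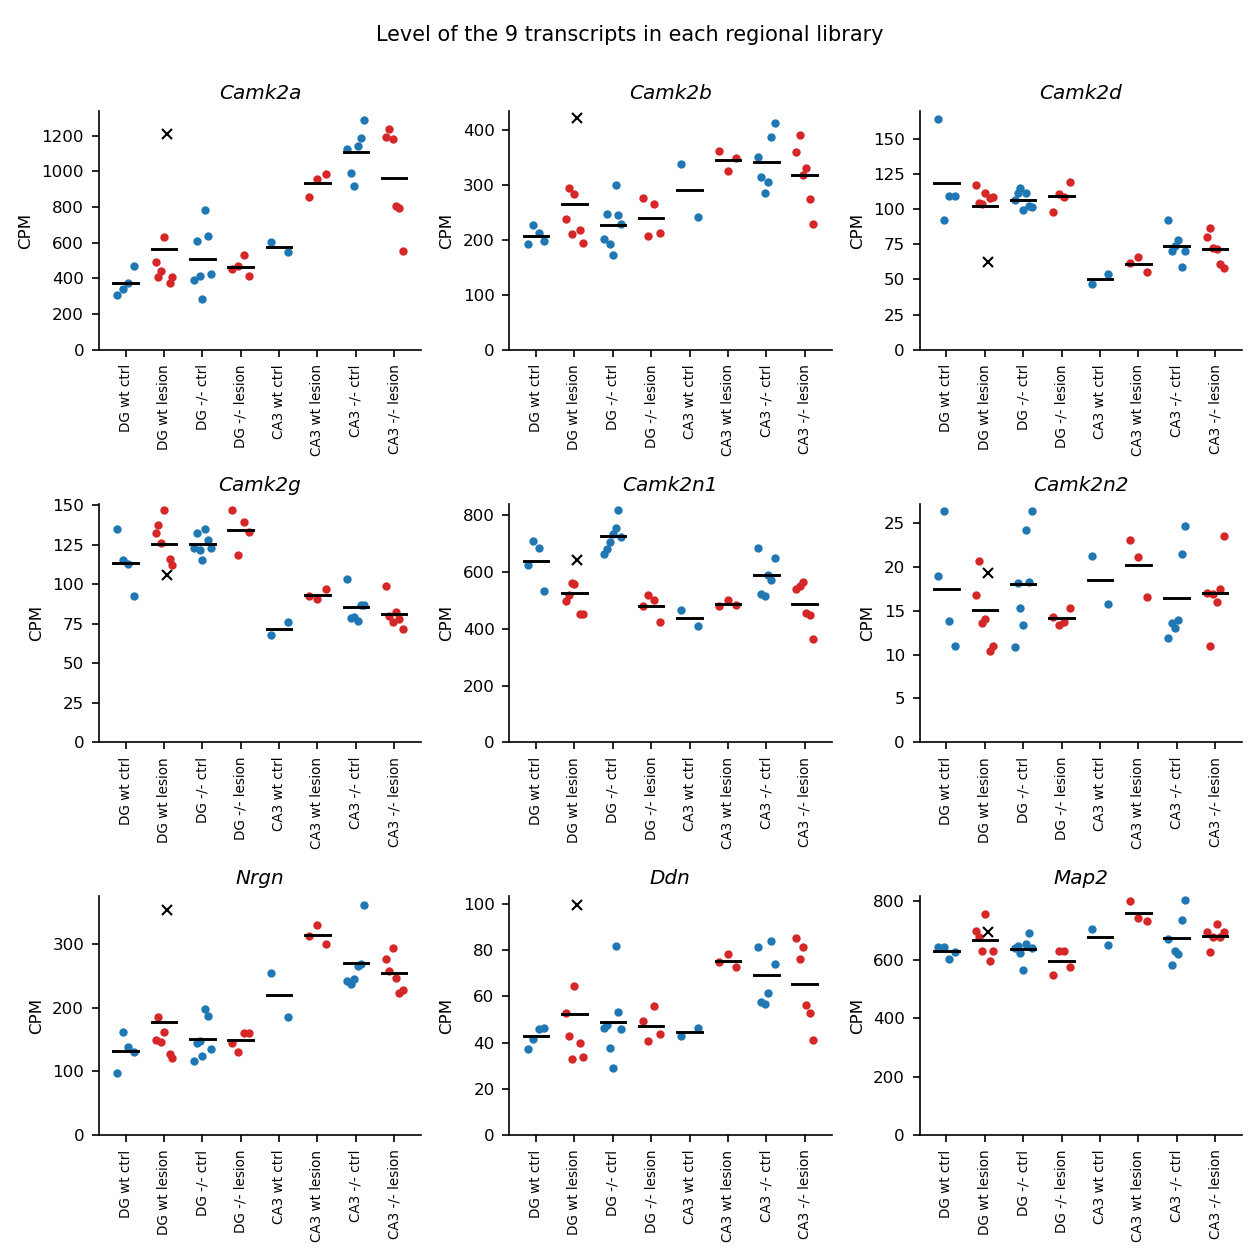
Level (CPM) of each transcript in every regional library, as points for control (blue) and lesioned (red) cultures with black bars for group means, where wt is wildtype and -/- the cultures labelled Synpo-/-. The cross is wildtype lesioned DG replicate 5, which lies among the CA3 libraries for Camk2a, Camk2d and Nrgn, and group means of Camk2d and Camk2g are higher in DG than in CA3.

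Per kilobase of exon, Camk2a was the leading subunit in both regions, with 51.8% ± 6.45 (SD, n = 4) of the summed subunit level in wildtype control DG and 63.1% ± 1.67 (n = 2) in CA3. In the Synpo-/- control cultures it was 56.8% ± 5.77 (n = 7) and 73.3% ± 1.35 (n = 6). Camk2g took 18.8% ± 3.86 in wildtype control DG and 9.27% ± 1.64 in CA3, and Camk2d 5.57% ± 1.69 and 1.85% ± 0.374. Nrgn was the highest of the 9 on this scale in CA3, with 151 ± 33.5 CPM per kilobase in wildtype control, and Camk2n1 in DG, with 144 ± 17.8 CPM per kilobase. In order of mean CPM over the 8 regional groups, Camk2a went from 372 ± 69.8 in wildtype control DG to 1108 ± 134 in Synpo-/- control CA3, and the only neighbours in that order whose libraries did not overlap were wildtype control CA3 (574 ± 41.1, n = 2) and wildtype lesioned CA3 (933 ± 68.8, n = 3). For Camk2b, Camk2g, Camk2n1, Camk2n2, Nrgn and Ddn every group overlapped its neighbour in that order.

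The effect of the lesion was small in most members. In wildtype DG, 0 of 9 were called by edgeR, against 12.2% of 23720 genes, with 2 at an unadjusted p under 0.05 and 0 called by DESeq2. Camk2a measured 304 to 467 CPM in control and, in lesioned DG, from 376 through a median of 440 to 1208 CPM, the highest being replicate 5. Its log2 fold change was 0.57 (95% confidence interval 0.00 to 1.14, adjusted p = 0.15), and without replicate 5 the lesioned libraries measured 460 ± 93.5 CPM (SD, n = 6) against 372 ± 69.8 CPM (n = 4) in control, a log2 fold change of 0.26 (95% confidence interval -0.03 to 0.56, adjusted p = 0.204). Camk2n1 measured 532 to 709 CPM in control and 451 to 642 CPM in lesioned DG, with a log2 fold change of -0.30 (SE 0.119, adjusted p = 0.0952). Without replicate 5 Camk2n1 was called, at -0.37 (SE 0.105, adjusted p = 0.0282), as the one member of 9, against 13.8% of 23605 genes. The other 7 members then lay between -0.32 (Camk2n2, adjusted p = 0.315) and 0.16 (Camk2b, adjusted p = 0.335). Summed astrocyte markers (6 genes) measured 3068 to 3821 CPM in control and 5510 to 7315 CPM in lesioned wildtype DG, and microglia markers (7 genes) 386 to 536 CPM and 960 to 1280 CPM, and their part was not tested.

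Camk2n1 was the one member called in DG cultures labelled Synpo-/-, where 1 of 9 was lower, against 3.36% of 23310 genes. It ran from 664 through a median of 721 to 817 CPM in 7 control libraries and measured 480, 519, 500 and 422 CPM in 4 lesioned ones. The groups did not overlap, and the log2 fold change was -0.64 (SE 0.089, 95% confidence interval -0.82 to -0.45, adjusted p = 0.000351), or 0.643 times the control level. The call of Camk2n1 kept its side of the threshold under each alternative run for this comparison, left-out libraries included. The difference between the genotypes in this lesion effect was 0.37 (95% confidence interval 0.06 to 0.67, adjusted p = 0.478). In DG, 0 of 9 members were called for that difference between the genotypes by edgeR, against 0.00381% of 26245 genes, with 2 at an unadjusted p under 0.05 and 0 called by DESeq2. Without wildtype lesioned replicate 5, 0 of 9 were called, against 0.00385% of 25977 genes, with 1 at an unadjusted p under 0.05, and the difference in Camk2n1 was 0.32 (95% confidence interval 0.04 to 0.60, adjusted p = 0.595). Summed astrocyte markers (6 genes) moved in the same cultures, from 3515 to 4260 CPM in control to 6077 to 7759 CPM in lesioned DG, and summed microglia markers measured 446 to 1030 CPM in control and 963 to 1402 CPM in lesioned DG, with an overlap. Summed neuronal markers (8 genes) measured 3254 to 5136 CPM in control and 2732 to 4175 CPM in lesioned DG, also with an overlap. The part of these markers in the Camk2n1 result was not tested.

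In wildtype CA3, 2 of 9 members were called higher after the lesion, against 1.5% of 22340 genes. Camk2a measured 603 and 545 CPM in control and 855, 958 and 986 CPM in lesioned libraries, a log2 fold change of 0.59 (SE 0.12, 95% confidence interval 0.33 to 0.86, adjusted p = 0.0423). Ddn measured 42.6 and 46.3 CPM in control and 74.7, 78.5 and 72.7 CPM in lesioned libraries, with 0.66 (SE 0.121, 95% confidence interval 0.39 to 0.93, adjusted p = 0.036). The lesioned libraries lay above the control libraries for both genes. The same held for Camk2d, Camk2g, Camk2n1, Nrgn and Map2, none of them called, with Map2 at a log2 fold change of 0.06 (adjusted p = 0.784). Summed astrocyte markers (6 genes) measured 3120 to 4118 CPM in control and 4766 to 6086 CPM in lesioned libraries, and summed microglia markers (7 genes) 401 to 706 CPM and 888 to 1209 CPM. Summed neuronal markers measured 6218 to 6789 CPM in control and 6620 to 9082 CPM in lesioned libraries, and the part of these markers in the results was not tested. These calls were fragile: Camk2a missed the threshold without any one of the 5 libraries (adjusted p 0.0591 to 0.173), and Ddn without control replicate 1 (adjusted p = 0.126), lesioned replicate 1 (0.0686) or lesioned replicate 2 (0.149). Nrgn had 0.41 (95% confidence interval 0.08 to 0.75, adjusted p = 0.144) and Camk2g 0.28 (95% confidence interval 0.02 to 0.53, adjusted p = 0.182).

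**Figure D5:**
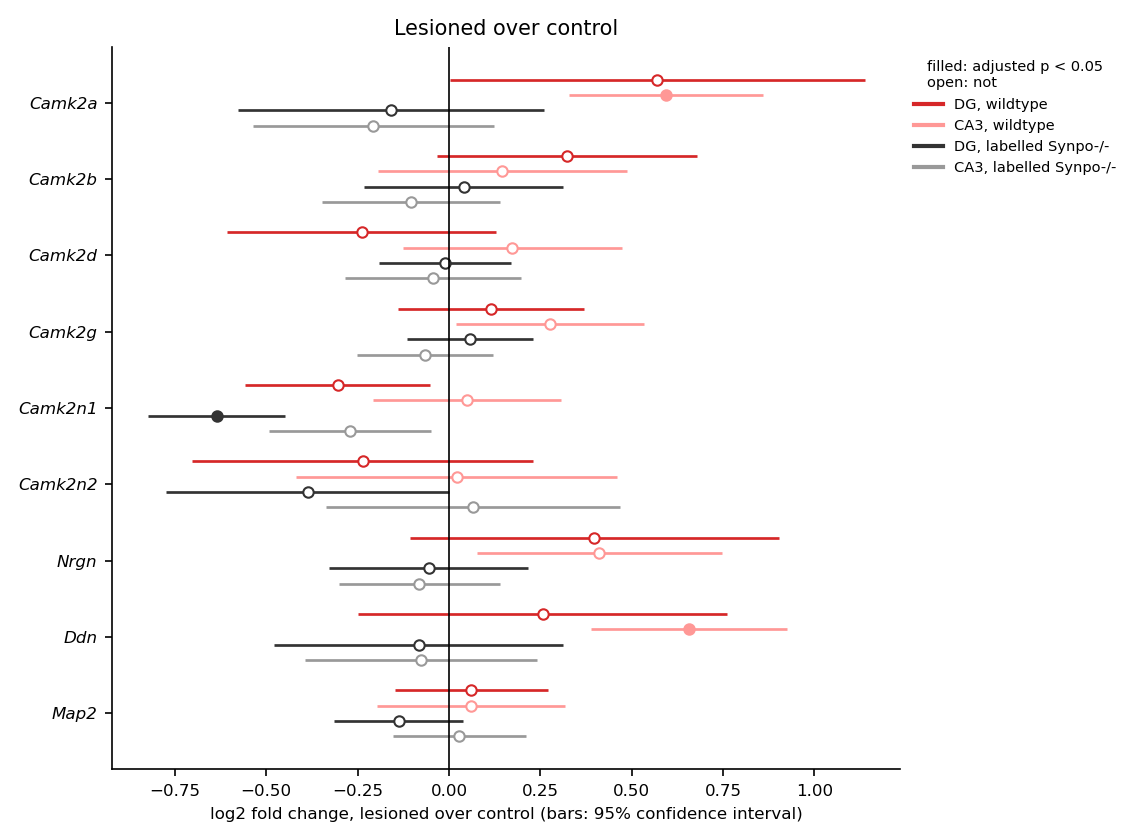
Log2 fold change of lesioned over control for each transcript with 95% confidence intervals, in DG and CA3 of wildtype and Synpo-/- cultures, filled where the adjusted p passed 0.05. Filled points are Camk2a (0.59) and Ddn (0.66) in wildtype CA3 and Camk2n1 (-0.64) in Synpo-/- DG.

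In CA3 of the cultures labelled Synpo-/-, with 6 libraries per group, 0 of 9 members were called by edgeR, against 0.077% of 20772 genes, with 1 at an unadjusted p under 0.05 and 0 called by DESeq2. That member was Camk2n1, with a log2 fold change of -0.27 (95% confidence interval -0.49 to -0.05, adjusted p = 0.582). Camk2a ran from 915 through 1133 to 1286 CPM in control and from 553 through 992 to 1238 CPM in lesioned libraries, with a log2 fold change of -0.21 (95% confidence interval -0.54 to 0.12, adjusted p = 0.833). Ddn had -0.08 (95% confidence interval -0.39 to 0.24, adjusted p = 0.949). The lesion effect differed between the genotypes by 0.83 in Camk2a (95% confidence interval 0.25 to 1.41, adjusted p = 0.17) and by 0.76 in Ddn (0.19 to 1.33, adjusted p = 0.188). In CA3, 0 of 9 members were called for the difference by edgeR, against 0% of 26821 genes, while 4 members and 4589 genes had an unadjusted p under 0.05, and DESeq2 called 0 members and 388 genes.

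The genotypes were compared last, in control cultures. In DG, 0 of 9 members were called by edgeR, against 0.0166% of 24143 genes, with 0 at an unadjusted p under 0.05 and 0 called by DESeq2, and Camk2a was 0.41 higher in Synpo-/- cultures (95% confidence interval -0.03 to 0.84, adjusted p = 0.352). In CA3, 0 of 9 were called by edgeR, against 0.00413% of 24203 genes, but 4 had an unadjusted p under 0.05 and DESeq2 called 2. Camk2a measured 603 and 545 CPM in wildtype and ran from 915 through 1133 to 1286 CPM in Synpo-/- libraries, which did not overlap. The libraries did not overlap for Camk2d, Camk2g, Camk2n1 and Ddn either. The log2 fold change of Camk2a was 0.89 (SE 0.137, 95% confidence interval 0.59 to 1.18, adjusted p = 0.0626), and DESeq2 gave 0.89 with an adjusted p of 8.16e-07. Camk2a lies 265 kb from Synpo on the same chromosome, the distance from the end of Synpo to the start of Camk2a. Whether this position bears on the Camk2a difference was not tested. Ddn had 0.58 (95% confidence interval 0.24 to 0.91, adjusted p = 0.128), Camk2d 0.50 (0.16 to 0.84, adjusted p = 0.166) and Camk2n1 0.36 (0.09 to 0.64, adjusted p = 0.202). Map2 was near level, at -0.07 (-0.33 to 0.19, adjusted p = 0.799).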

How the data were processed

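There were 63 libraries, 24 from coIP and input and 39 from DG and CA3. Reads were trimmed (cutadapt 3.5), mapped to mm10 (STAR 2.7.8a) and counted over GENCODE exons without regard to strand (featureCounts 2.0.1) by the authors, who deposited these counts per gene symbol without normalization. Of 55291 symbols, 107 stand for more than 1 gene. Samples were grouped by their labels. The whole table was fitted once per comparison in edgeR 4.0.16 (R 4.3.3), using only the groups compared and no covariate. Low counts were filtered by filterByExpr, libraries scaled by TMM, and quasi-likelihood p-values adjusted by Benjamini-Hochberg across the genes in the fit. A gene was called where its adjusted p was under 0.05.

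Alternatives were DESeq2 1.42.0, RLE size factors, no filter, a replicate block, removal of length and GC trends (offsets from a lowess of span 0.3, fitted where the mean count exceeded 50), all 4 groups in one fit, and leaving out each library. CoIP and input of a wildtype replicate come from the same lysate, and their deviations from the group means correlated across genes (r 0.189 to 0.442 in control, 0.105 to 0.381 in lesioned lysates). The labels number the Synpo-/- inputs in 2 ways, and the preparation number was used (r 0.0456, which shows no pairing).

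The members and the gene lists were chosen with earlier results of these data known. The genes named are the members, Synpo, the 4 genes of each list with the smallest p in wildtype control coIP over input, and the 5 genes most like Camk2a. Exonic lengths and positions come from the deposited annotation (GRCm38), and sequences from the GRCm38 reference, spliced by the exons of that annotation. Libraries are labelled as biological replicates, and whether they come from different animals is not stated, so p-values measure the spread between these samples. The fits were tested on simulated data, where 94.5% of 200 genes changed 4-fold were called for wildtype control coIP over input, and 74% for the difference between genotypes in coIP over input. The share was 69% for the lesion in wildtype CA3. For the difference between genotypes in the lesion effect it was 63.5% in DG and 47% in CA3. No member changed 4-fold in any comparison, so these shares do not give the power for changes of the size reported here. Depth sets counting error only, and all errors given are from replicates.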

Additional observations from a re-analysis of the deposited data

Results flagged for a closer look

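In groups of 4 to 10 libraries, the lowest and the highest value of each transcript were checked by Dixon's criterion for a library far from the rest. Of 90 groups checked, 8 held such a library, and chance alone marks about 1 group in 20. Wildtype lesioned DG replicate 5 accounted for 3 of them. Camk2a measured 1208 CPM there against 376 to 633 CPM in the other 6 libraries, Nrgn 353 CPM against 121 to 185 CPM and Camk2d 62.2 CPM against 104 to 117 CPM. In the same library the summed dentate granule cell markers (4 genes) measured 22.6 CPM, against at least 195 CPM in control DG and at most 27.4 CPM in control CA3 of wildtype, and the summed CA3 markers 784 CPM.

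Of the other libraries, wildtype lesioned input replicate 3 had 2078 CPM of Camk2a, against 1396 to 1589 CPM in the rest of its group. Lysate 1 of the lesioned wildtype cultures was high in Camk2d in both fractions, with 124 CPM in the input (others 85.3 to 92.1) and 120 CPM in the coIP (others 89.8 to 98.4). Lesioned coIP replicate 5 had 5.37 CPM of Camk2n2, against 1.66 to 2.42 CPM. Synpo-/- control CA3 replicate 6 had 361 CPM of Nrgn, against 238 to 269 CPM.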

How the results depend on the processing

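Of 2753 log2 fold changes of members under alternatives, 2452 kept their sign and side of the threshold, 51 newly passed it and 48 no longer did. The sign changed in 202, of which 189 were called in neither fit and 13 were called in at least 1. Those 13 all came with removal of the length trend in coIP over input. Without the trend, Camk2d was at -0.56 in wildtype control and -0.63 in lesioned lysates, at -0.38 and -0.44 with the GC trend removed too, and Map2 was at -0.041 and -0.065. With the lysate as a replicate block as well, Camk2d was at -0.57 and -0.63 (with GC -0.38 and -0.43), Map2 at -0.042 and -0.070, and Camk2n2 at 0.47 in control. The cause of these shifts was not tested.

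The number of the 9 members called moved as follows. In Synpo-/- coIP over input it was 2, but 1 without the length and GC trends and 4 with the block and no length trend. For the difference between genotypes in coIP over input it was 0, but 1 with DESeq2, without the filter, with the block, and with the block and no length trend, and 2 with the block and neither trend. With the inputs paired by their other number, a pairing chosen after seeing the data, it was 0. For the lesion in input it was 0, but 2 with DESeq2, 1 with RLE size factors, 1 without the filter, 2 without the length trend and 0 to 1 with a library left out. For the lesion in coIP it was 0 to 1 with a library left out. For the lesion in wildtype DG it was 0, but 1 with the block, 1 without the length trend and 0 to 1 with a library left out. In wildtype CA3 it was 2, but 1 with RLE size factors, 0 without the length trend, 0 with all groups in one fit and 0 to 1 with a library left out. For DG over CA3 in wildtype it was 4, but 1 with the block and 1 to 4 with a library left out. For the genotypes in control CA3 it was 0, but 2 with DESeq2, 3 without the filter, 3 with the block and 0 to 1 with a library left out, and Camk2a there had an adjusted p of 0.000464 with the block. Counts over all genes moved by more than 1.5 times as well: the difference between genotypes in coIP over input from 0 to 29 to 164 (DESeq2, no filter and every fit with a block), the lesion in input from 1007 to 1687 (DESeq2) and 551 (all groups), in coIP from 58 to 367 (DESeq2), 239 (no filter), 212 (all groups) and 1 (block), in wildtype CA3 from 397 to values between 1 (all groups) and 2716 (no filter), in Synpo-/- DG from 1989 to 662 (block) and in Synpo-/- CA3 from 16 to values up to 86 (no filter). DG over CA3 in wildtype went from 1382 to 692 (block), the genotypes in control DG from 4 to 235 (DESeq2) and 58 (no filter), and in control CA3 from 1 to values up to 2232 (block). The difference between genotypes in the lesion effect went from 0 to 388 (DESeq2), 160 (no filter) and 154 (block) in CA3, and from 1 to 2 (DESeq2) and 0 (block) in DG. Outside wildtype coIP and input, libraries with the same number were not shown to be paired throughout, and the block is given for completeness. The lowest r was -0.254, and that of Synpo-/- coIP and input was 0.0456. In control DG and CA3 labelled Synpo-/- r ran from -0.0151 to 0.54, the highest in replicate 4. Whether DG and CA3 libraries with the same number come from the same culture is not given in the labels. Depth limits Camk2n2 most, at a few CPM in the coIP experiment, and the 2 Synpo-/- lysates and 2 wildtype control CA3 libraries limit every value that rests on them.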
